A study of Mus musculus with 2 samples.

Results

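The 10 genes described here encode cytokines of the interleukin-1 family, their receptors and antagonist, and the epithelial alarmin Tslp: Il1a, Il1b, Il1rn, Il1r1, Il1r2, Il18, Il18r1, Il33, Il1rl1 and Tslp. They were taken by name from the 27998 genes of the count tables, with earlier results of these data known, and all 10 were present and detected in both libraries. The study reared wild-type C57BL/6 mice (C57BL/6J in its methods) in room air (21% oxygen) or in hyperoxia (80% oxygen), a model of bronchopulmonary dysplasia, from birth to postnatal day 14. Whole lungs were perfused, digested with dispase, collagenase and DNase, freed of red blood cells and sequenced as single cells on a droplet platform that counts unique molecular identifiers (UMIs) at the 3' end of transcripts. Each group was 1 library made from 8 pooled mice, so animal and exposure cannot be separated from library, no test between groups was possible, and every interval given here is a 95% interval that covers counting error only. No genotype or drug other than the oxygen level distinguished the groups.

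Interleukin-1 signals through Il1r1 and its accessory chain Il1rap. Il1rn competes for that receptor without signalling, and Il1r2 binds ligand as a decoy. Il18 acts through Il18r1 and Il18rap, chiefly on lymphocytes, and Il33 acts through Il1rl1 (ST2) on group 2 innate lymphoid cells (ILC2), mast cells, basophils and regulatory T cells. Il1a, Il33 and Tslp are known as alarmins, which barrier and stromal cells release on injury, and Il1b and Il18 are made as precursors that inflammasome caspases cleave, a step that mRNA counts do not show.

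After filtering, 3680 of 4234 barcodes from room air and 10473 of 13223 from hyperoxia were kept, with a median of 8067 and 7191 UMIs per cell, and 17 barcodes occurred in both libraries. Cells were clustered without the 10 genes and their pathway partners, and clusters were named from marker genes, so each class is given as "like" its cell type. Levels are the UMIs of a gene per 1000000 UMIs (CPM), both summed over the cells of a class. Several classes fell into different clusters in the libraries, which is stated beside the values it touches. Cells named club-like were left out of the comparisons of classes, but they are part of every value over all kept cells. They were left out because the 25 from hyperoxia had Scgb1a1 at 287 CPM and Sftpc at 157167 CPM. The 42 from room air had Scgb1a1 at 290188 CPM.

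**Figure D1:**
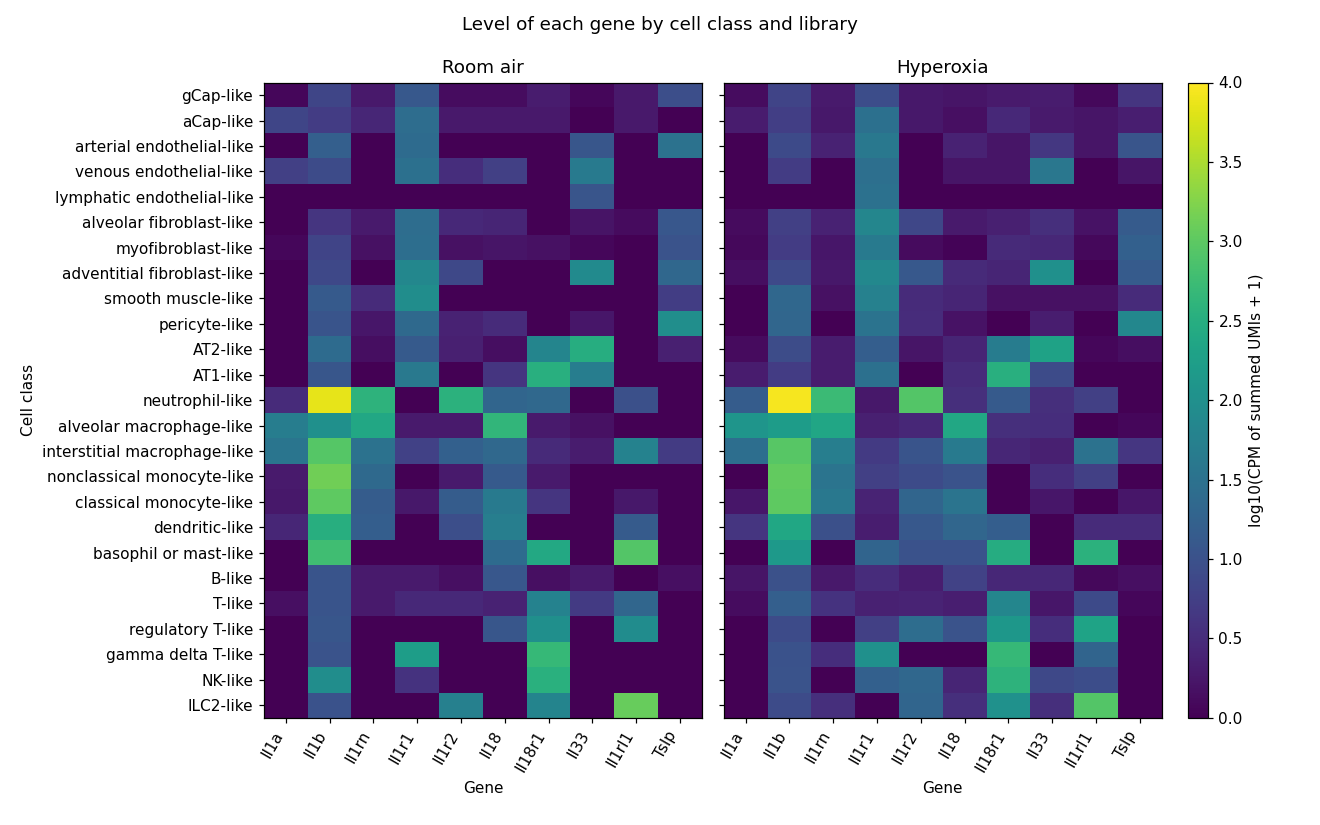
Level of the 10 genes (columns) in each cell class with at least 10 cells per library (rows), in room air (left) and hyperoxia (right), as log10(CPM + 1) of summed UMIs. Il1b was highest in neutrophil-like cells, at 7219 and 8950 CPM, and Il1rl1 in ILC2-like cells, at 1156 and 856 CPM.

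Il1a, on chromosome 2 (chr2:129299610-129309972, minus strand, GRCm38), was read mainly in macrophages. Alveolar macrophage-like cells had 100 UMIs in 146 cells in room air, or 48.6 CPM (39.6 to 59.1), and 680 UMIs in 315 cells in hyperoxia, or 120 CPM (111 to 129). Hyperoxia over room air gave a log2 ratio of 1.30 (0.996 to 1.62), and the intervals of the levels did not overlap. These cells held 64.5% of all Il1a UMIs in room air and 85.8% in hyperoxia. Next came interstitial macrophage-like cells, at 35.4 CPM (24.8 to 49.0) and 26.5 CPM (20.3 to 33.9), whose log2 ratio of -0.42 had an interval on both sides of 0 (-1.03 to 0.22). In room air the levels of the macrophage classes overlapped, and in hyperoxia they did not. Over all kept cells the level was 4.25 CPM in room air against 9.07 CPM in hyperoxia.

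At least 1 Il1a UMI was found in 36.3% (28.5 to 44.7) and 56.5% (50.8 to 62.1) of alveolar macrophage-like cells from room air and hyperoxia, at median depths of 13840.5 and 17833 UMIs. Thinned to 1000 UMIs per cell, which left out 1 cell of each library, the shares were 2.76% (0.757 to 6.91) and 6.69% (4.19 to 10.0). B-like cells, which should lack the transcript and had median depths of 4646 and 2950.5 UMIs, had it in 0 of 397 and 3 of 1326 cells, the count of 0 allowing up to 3. The alveolar macrophage-like cells of the libraries lay largely in different clusters, with 100 of the 146 room air cells in cluster 48 and 286 of the 315 hyperoxia cells in cluster 42. Within cluster 42, which had 24 room air cells, Il1a was at 46.2 CPM in room air against 120 CPM in hyperoxia (log2 ratio 1.38), and in cluster 48 it was at 56.7 CPM in room air.

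Il18, on chromosome 9 (chr9:50554827-50581840, plus strand), had the same leading class and the opposite direction. Alveolar macrophage-like cells had 426 CPM (398 to 455) in room air against 245 CPM (232 to 258) in hyperoxia, from 876 and 1391 UMIs. Its log2 ratio was -0.80 (-0.92 to -0.67). They held 81.1% and 84.0% of its UMIs, and Il18 was found in 85.6% (78.9 to 90.9) and 81.3% (76.5 to 85.4) of them, or in 36.6% and 21.3% after thinning to 1000 UMIs. T-like cells had it in 0.775% and 0.608% of cells, at median depths of 6496 and 4783 UMIs. The median log2 ratio over the 7365 genes compared in alveolar macrophage-like cells was -0.25, and relative to it Il18 stood at -0.55 (-0.67 to -0.43). Within cluster 42 the levels were closer, 302 CPM in room air against 246 CPM in hyperoxia (log2 ratio -0.30, -0.55 to -0.03), and the room air cluster 48 was at 499.7 CPM. The difference was thus smaller between cells that clustered together than between the whole classes. The summed level of the 9 alveolar macrophage markers was 12508 CPM in room air against 7999 CPM in hyperoxia, and its part in the Il18 ratio was not tested. In interstitial macrophage-like cells Il18 was low, with 21.6 CPM (13.6 to 32.7) in room air against 41.2 CPM (33.5 to 50.2) in hyperoxia, which gave a log2 ratio of 0.93 (0.25 to 1.67).

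Of the 4 members with a mean of at least 10 CPM in alveolar macrophage-like cells, Il1a was the 1 that differed by at least 2-fold, where 8.92% of all genes did. Il1b, at 100 CPM (86.9 to 115) and 162 CPM (152 to 173), had a log2 ratio of 0.70 (0.48 to 0.92), which turned to -0.12 when double the expected number of doublets was removed. Il1rn was abundant there, at 251 CPM (230 to 274) and 236 CPM (223 to 248.5), and its interval included 0 (log2 ratio -0.09, -0.24 to 0.06).

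Il1b (chr2:129364570-129371139, minus strand) was highest in neutrophil-like cells. Neutrophil-like cells had 3357 UMIs in 111 cells in room air, or 7219 CPM (6977 to 7467), and 11180 UMIs in 485 cells in hyperoxia, or 8950 CPM (8784 to 9117), a log2 ratio of 0.31 (0.25 to 0.37). This ratio turned to -0.10 under a stricter filter on cells (1000 genes or more, mitochondrial share up to 10%). Nonclassical monocyte-like cells followed with 1357 CPM (1287 to 1429) and 1095 CPM (997 to 1200), and in them the log2 ratio was -0.31 (-0.46 to -0.16). In 5 of 12 alternative settings that ratio lay outside this interval, nearer to 0, the nearest being -0.0013 (-0.13 to 0.13) under the stricter filter on cells. Classical monocyte-like cells, at 1019 and 1035 CPM, and interstitial macrophage-like cells, at 890 and 912 CPM, had ratios whose intervals included 0. The interstitial macrophage-like value averaged clusters of opposite direction, with 965 against 584 CPM (log2 ratio -0.73, -0.90 to -0.55) in cluster 45 and 813 against 1199 CPM (0.56, 0.40 to 0.72) in cluster 47, and it was -0.66 (-0.84 to -0.48) with doubled doublet removal. In hyperoxia the intervals of the monocyte classes overlapped, while the neutrophil level was far above them in both libraries.

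The cells that held Il1b differed between the libraries more than the level did. Neutrophil-like cells made up 3.02% and 4.63% of kept cells in room air and hyperoxia, and their share of all Il1b UMIs was 43.4% and 66.0%. Nonclassical monocyte-like cells were 6.44% and 1.30% of kept cells and held 18.2% and 2.71% of the UMIs. Summed over all kept cells the level was 212 CPM in room air against 194 CPM in hyperoxia (log2 ratio -0.13, -0.17 to -0.09), the opposite direction to the neutrophil-like cells, although the mean of the CPM of single cells gave 0.26.

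Il1b was found in 94.6% (88.6 to 98.0) and 93.2% (90.6 to 95.3) of neutrophil-like cells, at median depths of 3204 and 2278 UMIs, and in 89.1% and 90.2% after thinning to 1000 UMIs, for which 110 of 111 and 479 of 485 cells were deep enough. B-like cells had it in 5.04% (3.104 to 7.67) and 2.87% (2.04 to 3.91) of cells, at 10.1 and 8.71 CPM, beside S100a8, a neutrophil transcript, at 16.1 and 21.4 CPM. Levels of Il1b near 10 CPM in other classes therefore lay at that of B-like cells. AT2-like cells had 24.4 CPM in room air against 7.49 CPM in hyperoxia, with S100a8 there at 142 and 24.0 CPM. Of the Il1b UMIs in AT2-like cells, 52 of 59 in room air and 47 of 91 in hyperoxia lay in cluster 22, of 14 and 179 cells.

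The neutrophil-like cells formed 4 clusters. The largest, cluster 41, had 80 and 317 cells and 11476 and 12000 CPM of Il1b, a log2 ratio of 0.06. In cluster 49 the levels were 7320 and 6570 CPM, and in cluster 51, led by the granule genes Ngp and Camp, they were 953 and 699.5 CPM. Cluster 52, led by genes including Ccl3 and Irg1, had 49 of its 50 cells from hyperoxia and 11379 CPM. The class ratio of 0.31 was thus not seen inside any cluster that held at least 10 cells of each library. In room air the Ngp and Camp cluster had 12 cells at a median of 11352.5 UMIs, against 2859.5 in cluster 41, and Ngp over the whole class was at 7393 CPM in room air against 2309 CPM in hyperoxia.

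Il1rn (chr2:24336853-24351494, plus strand), the receptor antagonist, had 387 CPM (333 to 448) in neutrophil-like cells in room air against 533 CPM (493 to 575) in hyperoxia, from 180 and 666 UMIs, with a log2 ratio of 0.46 (0.22 to 0.71). A single room air cell held 77 of the 180 UMIs, and without the cell with the most UMIs in each library the log2 ratio was 1.18 (0.88 to 1.495). That cell belonged to cluster 52, whose 49 hyperoxia cells held 344 of the 666 hyperoxia UMIs, at 2959 CPM. Without cluster 52 the log2 ratio was 0.35 (0.03 to 0.68), and in cluster 41 the levels were 365 and 367 CPM. The share of neutrophil-like cells with the transcript did not separate the libraries, 50.5% (40.8 to 60.1) and 46.8% (42.3 to 51.4), or 23.6% and 29.9% after thinning to 1000 UMIs, against 0.504% and 0.302% of B-like cells. Most Il1rn UMIs lay outside this class: neutrophil-like cells held 22.1% and 29.25% of them, and alveolar macrophage-like cells 63.5% and 58.7%. Classical monocyte-like cells had 13.5 CPM (7.89 to 21.7) and 38.8 CPM (29.1 to 50.8), a log2 ratio of 1.52 (0.71 to 2.40) from 17 and 53 UMIs, all in 1 cluster that both libraries shared.

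Il1r2 (chr1:40074079-40125231, plus strand), the decoy receptor, was higher in hyperoxia throughout the neutrophil-like class. Neutrophil-like cells had 174 UMIs in room air, or 374 CPM (321 to 434), and 1050 in hyperoxia, or 841 CPM (790 to 893), a log2 ratio of 1.17 (0.93 to 1.41). It was higher in hyperoxia in each of the clusters with at least 10 cells per library, at 499 and 968 CPM in cluster 41, 530 and 870 CPM in cluster 49, and 104 and 274 CPM in cluster 51. The share of neutrophil-like cells with a UMI was 63.1% (53.4 to 72.0) and 75.5% (71.4 to 79.2), although the hyperoxia cells were shallower, and after thinning to 1000 UMIs it was 39.1% (29.9 to 48.9) and 53.7% (49.1 to 58.2). B-like cells had it in 0.252% and 0.377% of cells. These cells held 69.9% and 79.7% of Il1r2 UMIs, and no other class with at least 50 cells in each library exceeded 15.7 CPM in room air (interstitial macrophage-like) or 19.1 CPM in hyperoxia (classical monocyte-like).

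Of the 5 members at a mean of at least 10 CPM in neutrophil-like cells, 1 was at least 2-fold higher (Il1r2) and 1 at least 2-fold lower in hyperoxia (Il18, on 9 and 3 UMIs), where 13.5% of all genes differed by that much. Genes of the tissue dissociation response, such as Fos and Jun, summed to 14612 CPM in room air against 19702 CPM in hyperoxia in these cells, with 10 of 12 higher in hyperoxia, and their part in the ratios was not tested. Il1f9, which encodes interleukin-36 gamma, was the 1 of the 5 other family cytokines that reached 10 CPM there, at 116 and 287 CPM (log2 ratio 1.30, 0.89 to 1.74). Il1rap, which pairs with both Il1r1 and Il1r2, was at 174 and 251 CPM, a log2 ratio of 0.53 (0.17 to 0.90).

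**Figure D2:**
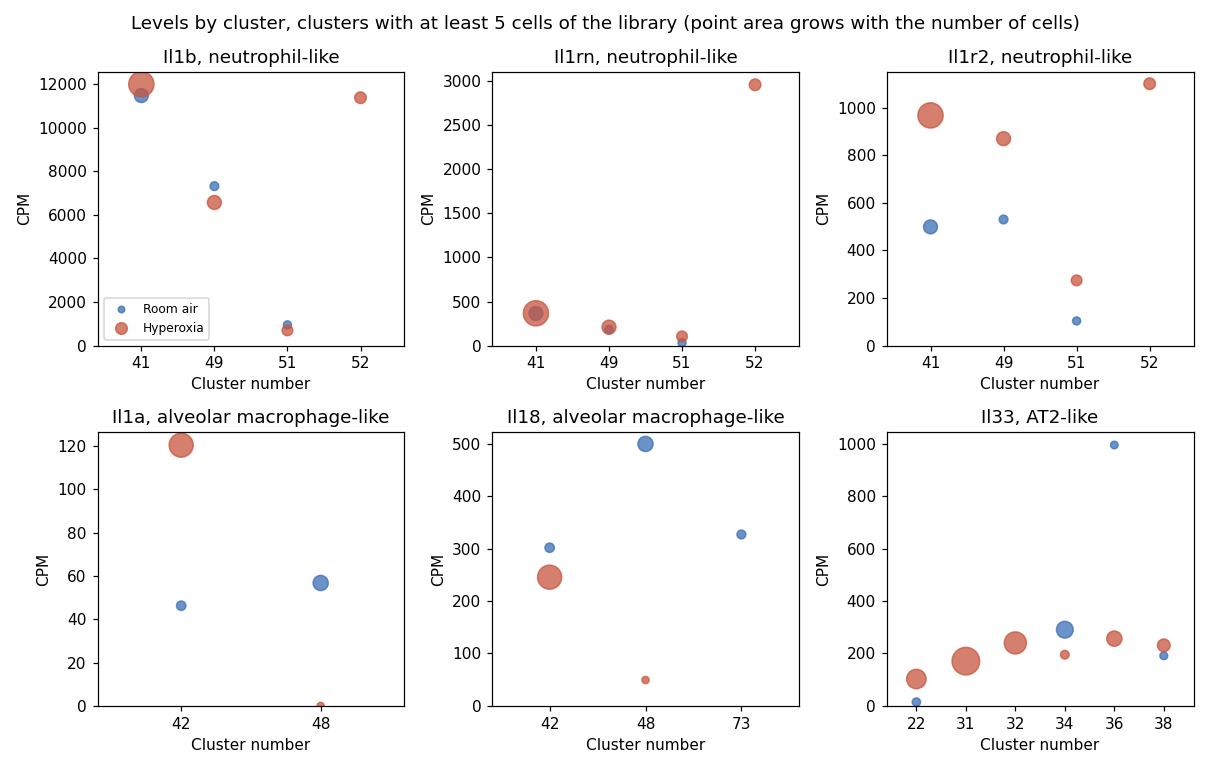
CPM of 6 gene and class pairs (panels) by cluster number (horizontal axis) in room air (blue) and hyperoxia (red), for clusters with at least 5 cells of the library. Il1r2 lay higher in hyperoxia in clusters 41, 49 and 51, whereas Il1b in cluster 41 was at 11476 and 12000 CPM.

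The promoters of the 3 genes led by neutrophil-like cells are shown because these transcripts were read in the same cells and differed to different degrees. Each is the 250 bases before the start site in RefSeq on GRCm38.p6, written 5' to 3' on the strand of the gene, with capitals on matches to a TATA box (TATAAA, sense strand), an ETS core (AGGAAGT, both strands) or an AP-1 site (TGANTCA, both strands). Il1rn has more than 1 start in that table, and the most upstream is given. The windows of its other starts held none of these motifs, and counts at the 3' end do not show which start was used. Most Il1rn UMIs lay in alveolar macrophage-like cells. The Il1r2 start lies inside the gene span given above.
Il1b (chr2:129371140-129371389, minus strand): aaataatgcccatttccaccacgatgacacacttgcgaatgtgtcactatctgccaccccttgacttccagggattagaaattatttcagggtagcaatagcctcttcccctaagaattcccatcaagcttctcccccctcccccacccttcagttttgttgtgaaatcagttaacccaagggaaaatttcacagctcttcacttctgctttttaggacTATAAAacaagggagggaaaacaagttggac
Il1rn (chr2:24336610-24336859, plus strand): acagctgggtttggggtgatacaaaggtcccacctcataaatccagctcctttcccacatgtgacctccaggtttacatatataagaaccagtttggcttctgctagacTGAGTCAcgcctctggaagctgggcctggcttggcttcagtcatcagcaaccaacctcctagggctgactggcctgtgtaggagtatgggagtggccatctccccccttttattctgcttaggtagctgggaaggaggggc
Il1r2 (chr1:40085843-40086092, plus strand): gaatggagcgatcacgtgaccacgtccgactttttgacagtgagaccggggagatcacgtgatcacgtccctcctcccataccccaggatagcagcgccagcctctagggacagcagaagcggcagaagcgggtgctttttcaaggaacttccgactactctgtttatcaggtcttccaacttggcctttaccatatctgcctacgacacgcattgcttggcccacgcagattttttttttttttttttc
The Il1b window held a TATA box beginning at -31 from the start, a motif present in 7.59% of 32851 windows of that length. The Il1rn window held an AP-1 match at -141, as did 6.75% of all windows. Neither the ETS core, found in 7.69% of windows, nor the other motifs occurred in the Il1r2 window. A match is a string of letters and was not tested as a binding site.

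Il1r1 (chr1:40225080-40317257, plus strand), the signalling receptor, was spread over stromal, endothelial and epithelial cells. In alveolar fibroblast-like cells it was at 26.0 CPM (20.7 to 32.3) in room air, from 82 UMIs in 218 cells, and 66.5 CPM (62.2 to 71.1) in hyperoxia, from 860 UMIs in 1216 cells. The log2 ratio was 1.36 (1.03 to 1.70), and Il1r1 was the 1 of 2 members at 10 CPM or more that differed by at least 2-fold in this class, where 4.29% of all genes did. Myofibroblast-like cells had 26.8 CPM (22.8 to 31.4) and 43.8 CPM (39.8 to 48.2), a log2 ratio of 0.71 (0.44 to 0.98). Adventitial fibroblast-like cells, at 70.4 CPM (53.0 to 91.6) and 73.2 CPM (63.1 to 84.6), had a log2 ratio of 0.06 (-0.38 to 0.52). In smooth muscle-like cells, with 37 cells in room air, the level was 89.8 CPM (64.7 to 121) and 56.1 CPM (46.0 to 67.8), a log2 ratio of -0.68 (-1.21 to -0.13) that turned to 0.11 with no doublets removed. Gamma delta T-like cells had the highest level, 165 CPM (96.1 to 264) and 101 CPM (73.1 to 135), but only 16 cells in room air.

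In room air the smooth muscle-like and adventitial levels lay above those of the alveolar fibroblast-like and myofibroblast-like cells, and in hyperoxia the intervals of smooth muscle-like, adventitial and alveolar fibroblast-like cells overlapped. Over all kept cells Il1r1 was at 17.2 and 27.3 CPM (log2 ratio 0.67), and alveolar fibroblast-like cells held 13.1% of its UMIs in room air and 36.1% in hyperoxia. In those cells it was found in 24.8% (19.2 to 31.1) and 42.0% (39.2 to 44.9), at median depths of 15731 and 11058.5 UMIs, or in 2.38% (0.777 to 5.47) and 5.64% (4.38 to 7.14) after thinning to 1000 UMIs, against 0.504% and 0.679% of B-like cells.

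Alveolar fibroblast-like cells of the libraries shared no large cluster except cluster 33, of 35 and 144 cells, whose median depth was 1145 UMIs and whose room air cells had no Il1r1 UMI. Of the room air cells 171 of 218 lay in cluster 24, with Il1r1 at 23.5 CPM, and clusters 14, 17 and 18, nearly all from hyperoxia, had 63.6, 80.1 and 57.5 CPM. The few room air cells of cluster 17, 4 with 10 UMIs, stood at 149 CPM (log2 ratio -0.89, -1.79 to 0.18), and the 4 of cluster 18, with 3 UMIs, at 44.1 CPM (0.38, -1.18 to 2.67). A difference between libraries in this class therefore cannot be told apart from a difference between its clusters. The partner chain Il1rap moved the same way in this class, from 16.2 to 31.3 CPM (log2 ratio 0.95, 0.53 to 1.40). It did not follow Il1r1 in every class. In myofibroblast-like cells Il1rap was at 57.5 and 51.3 CPM (-0.16, -0.37 to 0.04). In aerocyte (aCap)-like cells it was lower in hyperoxia, at 42.3 and 12.8 CPM (-1.72, -2.22 to -1.21), with Il1r1 at 26.2 and 29.2 CPM. Of the 4 response genes at 10 CPM or more in alveolar fibroblast-like cells, 3 were at least 2-fold higher in hyperoxia. Among them was the neutrophil chemokine Cxcl1, at 5.08 and 37.2 CPM. Of all genes compared in alveolar fibroblast-like cells, 4.29% differed by at least 2-fold either way. All 12 genes of the tissue dissociation response were also higher in hyperoxia in these cells, with sums of 7083 and 11962 CPM, and their part in the Il1r1 ratio was not tested.

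Il18r1 (chr1:40465552-40500854, plus strand) was found in lymphoid cells, the alveolar epithelium and basophil or mast-like cells. Gamma delta T-like cells had 485 CPM (360 to 640) in room air against 483 CPM (420 to 552) in hyperoxia, and NK-like cells, 47 in room air and thus under the size set for a leading class, had 349 CPM (290 to 416) and 379 CPM (333 to 430). AT1-like cells, the flat cells of the alveolar surface, had 329 CPM (286 to 377) and 329 CPM (294 to 367), from 210 and 321 UMIs, with a log2 ratio of 0.00 (-0.25 to 0.26). The level thus matched within its interval in both libraries, and the levels of NK-like and AT1-like cells overlapped. The 15 and 20 basophil or mast-like cells had 260 CPM (163 to 393.5) and 299 CPM (205 to 422), from 22 and 32 UMIs, and the Il18 receptor chain Il18rap was at 520 and 598 CPM in them. T-like cells had 58.1 and 68.2 CPM. AT2-like cells, the surfactant-producing cells, had 66.2 CPM (56.3 to 77.3) and 46.2 CPM (42.5 to 50.2), a log2 ratio of -0.52 (-0.77 to -0.25).

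Among AT1-like cells 74.6% (62.1 to 84.7) and 62.1% (53.0 to 70.7) had an Il18r1 UMI, at median depths of 6941 and 6378 UMIs, or 33.9% and 24.6% after thinning to 1000 UMIs, when 59 of 63 and 114 of 124 cells remained. B-like cells, taken for comparison after AT2-like cells proved to hold the transcript, had it in 0.252% and 0.603% of cells. The partner chain Il18rap was nearly missing from AT1-like cells, with 1 and 2 UMIs in all, while it stood at 351 and 612 CPM in NK-like cells and 200 and 300.2 CPM in neutrophil-like cells. Il18r1 begins 136 bases after the end of Il1rl1 on the same strand, and AT1-like cells had 0 UMIs of Il1rl1 in both libraries.

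**Figure D3:**
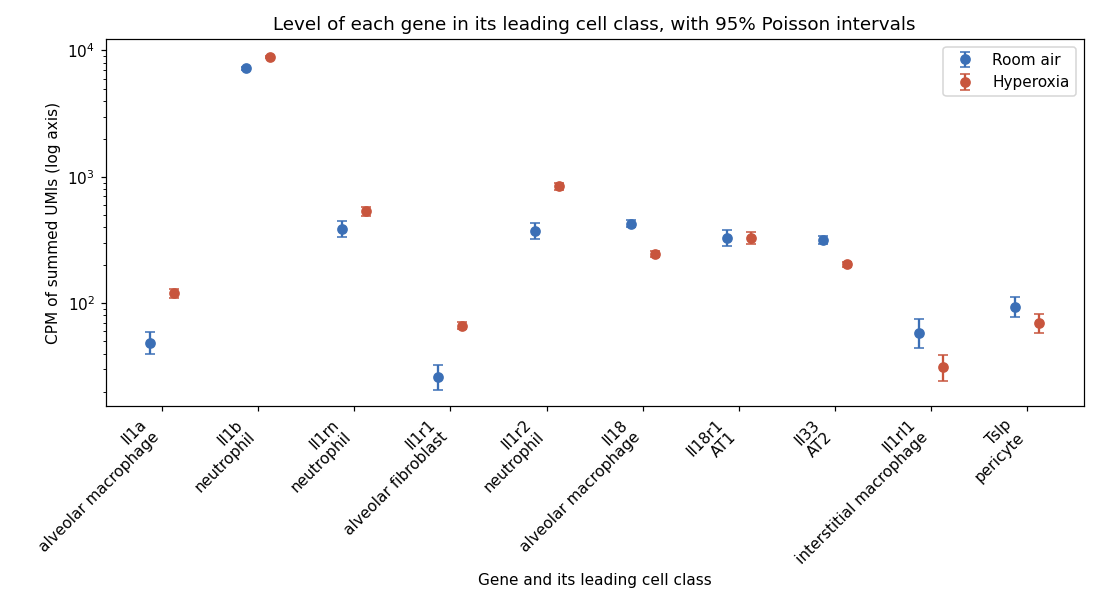
CPM (log axis) of each gene in its leading class in room air (blue) and hyperoxia (red), with bars for exact 95% Poisson intervals. Il1a, Il1r1 and Il1r2 lay higher in hyperoxia, Il18 and Il33 lower, and Il18r1 at 329 CPM in both.

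Il33 (chr19:29925114-29960718, plus strand), an alarmin kept in the nucleus, was read mostly in AT2-like cells. These had 315 CPM (293 to 338) in room air, from 761 UMIs in 162 cells, and 203 CPM (195 to 211) in hyperoxia, from 2468 UMIs in 981 cells, a log2 ratio of -0.63 (-0.75 to -0.51). They held 76.9% and 80.8% of its UMIs. AT2-like cells made up 4.40% and 9.37% of kept cells in room air and hyperoxia, and over all kept cells Il33 was higher in hyperoxia, at 27.2 CPM (25.5 to 28.9) and 34.9 CPM (33.7 to 36.2), a log2 ratio of 0.36 (0.26 to 0.47). The level within the class and the level in the whole suspension therefore pointed in opposite directions. Club-like cells, which are part of all kept cells, held 93 Il33 UMIs in room air and 153 in hyperoxia.

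At least 1 Il33 UMI was found in 80.9% (74.0 to 86.6) and 62.6% (59.5 to 65.6) of AT2-like cells, at median depths of 15564.5 and 13194 UMIs, or in 21.0% (14.99 to 28.1) and 14.2% (12.04 to 16.6) after thinning to 1000 UMIs, against 0.504% and 0.603% of B-like cells. In cluster 34, which held 127 of the room air cells and 17 from hyperoxia, the levels were 290.5 and 195 CPM. The larger hyperoxia clusters 31 and 32 were at 171 and 240 CPM. In cluster 36 the 8 room air cells had 995 CPM and the 101 hyperoxia cells 256 CPM. The difference had the other sign in cluster 22, at 14.6 against 102.5 CPM from 2 and 36 UMIs in 14 and 179 cells (log2 ratio 2.82, 0.86 to 5.92), whose median depths were 4512 and 1423 UMIs, and in cluster 38 the levels of 10 and 63 cells were 191 and 231 CPM (0.27, -0.77 to 1.53).

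Beyond the epithelium, adventitial fibroblast-like cells had 80.6 CPM (61.9 to 103) and 103 CPM (90.4 to 116), with a ratio whose interval included 0, and venous endothelial-like cells had 43.1 CPM (25.5 to 68.1) and 37.8 CPM (28.5 to 49.2). AT1-like cells had 48.6 CPM in room air against 7.18 CPM in hyperoxia, but the surfactant gene Sftpc, which marks AT2 cells, was at 38801 and 6264 CPM in the same cells, and its part in that difference was not tested. With no doublets removed, the log2 ratio of -2.76 turned to 0.02. Of the members at 10 CPM or more, 1 of 4 in AT2-like cells (Il1b, lower in hyperoxia) and 1 of 3 in AT1-like cells (Il33, lower in hyperoxia) differed by at least 2-fold, where 4.09% and 8.80% of all genes did. For Il1b in AT2-like cells, 52 of the 59 room air UMIs lay in the 14 room air cells of cluster 22.

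Il1rl1 (chr1:40429570-40465415, plus strand), the Il33 receptor, was concentrated in small classes. The 12 ILC2-like cells of room air had 128 UMIs, or 1156 CPM (964 to 1374), and the 60 of hyperoxia had 356 UMIs, or 856 CPM (770 to 950), a log2 ratio of -0.43 (-0.73 to -0.13), and 1 room air cell held 38 of the 128 UMIs. In 2 of 11 alternative settings that ratio lay outside its interval, at -0.74 and -0.10. ILC2-like cells held 37.4% and 53.9% of all Il1rl1 UMIs. The ILC2 regulator Gata3 was at 1075 and 803 CPM in them and Cd3e, which marks T cells, at 9.03 and 4.81 CPM. The summed T cell markers were at 442 and 183 CPM, the B cell markers at 813 and 24.1 CPM and the dissociation genes at 8957 and 14521 CPM (11 of 12 higher in hyperoxia), and their part in the Il1rl1 ratio was not tested. Basophil or mast-like cells had 862 CPM (676 to 1084) and 364.5 CPM (259 to 498), but 56 of the 73 room air UMIs and 25 of the 39 hyperoxia UMIs came from single cells among 15 and 20. Regulatory T-like cells, 25 and 76 in number, had 87.3 CPM (49.9 to 142) and 208 CPM (167 to 257), a log2 ratio of 1.25 (0.47 to 2.12) that turned to -0.22 when each library was clustered on its own.

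The leading class by the rule on size was the interstitial macrophage-like class, with 58.0 CPM (44.1 to 74.8) and 31.1 CPM (24.4 to 39.1), from 59 and 74 UMIs, and a log2 ratio of -0.90 (-1.41 to -0.38). That direction was reversed, at 1.38 (0.35 to 2.64), when each library was clustered on its own. Most of these UMIs lay in cluster 47, at 102 and 48.0 CPM, where the interstitial macrophage gene C1qa was at 248 and 686 CPM, against 4748 and 4943 CPM in cluster 45. In cluster 45 Il1rl1 was at 15.5 and 11.7 CPM. The leading genes of cluster 47 included Ccl17, Mgl2, C1qb and Cd209a, the last a marker set for the dendritic class. At least 1 UMI was found in 26.0% (16.6 to 37.2) and 18.9% (13.8 to 24.8) of the class, at median depths of 11851 and 10461.5 UMIs, or in 5.26% and 4.25% after thinning, against 0 of 397 and 1 of 1326 B-like cells, the count of 0 allowing up to 3. None of the 6 members at 10 CPM or more in this class differed by 2-fold, where 4.98% of all genes did. T-like cells had 19.99 and 7.03 CPM, of which 38 of 42 UMIs in room air lay in cluster 68, led by cell cycle genes. Counts at the 3' end were not separated into the soluble and membrane forms of Il1rl1.

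Downstream of that receptor, Il13 was at 307 and 149 CPM in ILC2-like cells (log2 ratio -1.04, -1.67 to -0.39), from 34 and 62 UMIs, Il5 at 63.2 and 86.6 CPM, and Areg, a growth factor these cells secrete, at 2447 and 1703 CPM. In basophil or mast-like cells Il4 was at 177 and 467 CPM, from 15 and 50 UMIs. These values have no replicate check and rest on few room air cells.

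Tslp (chr18:32815383-32819797, plus strand) was read in the mesenchyme rather than the epithelium. Pericyte-like cells, the contractile cells that wrap capillaries, had 93.9 CPM (78.5 to 111) in room air, from 131 UMIs in 126 cells, and 69.6 CPM (58.0 to 82.8) in hyperoxia, from 127 UMIs in 181 cells, a log2 ratio of -0.43 (-0.80 to -0.07). In cluster 21, with 97 and 100 cells, the levels were 116 and 88.1 CPM. The summed pericyte markers were at 19608 and 14606 CPM, those of smooth muscle at 3399 and 5911 CPM (7 of 7 higher in hyperoxia) and the dissociation genes at 6675 and 8981 CPM (11 of 12 higher), and their part in the Tslp ratio was not tested. At least 1 UMI was found in 58.7% (49.6 to 67.4) and 43.1% (35.8 to 50.6) of them, at median depths of 10527 and 9648 UMIs, or in 11.1% and 9.39% after thinning to 1000 UMIs, with intervals that overlapped, against 0.252% and 0.151% of B-like cells. Pericyte-like cells held 41.5% of Tslp UMIs in room air and 22.6% in hyperoxia.

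Arterial endothelial-like cells were next in room air, with 30.7 CPM (16.8 to 51.4) from 14 UMIs, and had 10.5 CPM (5.87 to 17.3) in hyperoxia from 15 UMIs, where myofibroblast-like cells were next. Myofibroblast-like cells had 9.47 CPM (7.11 to 12.4) and 15.6 CPM (13.2 to 18.3), a log2 ratio of 0.72 (0.26 to 1.20), opposite in sign to that of pericyte-like cells. General capillary (gCap)-like cells, most of which lay in separate clusters in the libraries, had 8.18 CPM (6.01 to 10.9) and 3.15 CPM (2.08 to 4.59). AT1-like cells had no Tslp UMI in either library. Among the 3 members at 10 CPM or more in pericyte-like cells 1 differed by at least 2-fold (Il1b, at 10.0 and 20.3 CPM on 14 and 37 UMIs), where 6.10% of all genes did. The Tslp receptor chain Crlf2 was read in most classes, for example at 4.14 and 4.03 CPM in AT2-like cells, 125 and 144 CPM in aerocyte (aCap)-like cells and 146 and 122 CPM in neutrophil-like cells, and its partner Il7r was highest in gamma delta T-like cells, at 1319 and 1169 CPM, and ILC2-like cells, at 632 and 861 CPM.

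**Figure D4:**
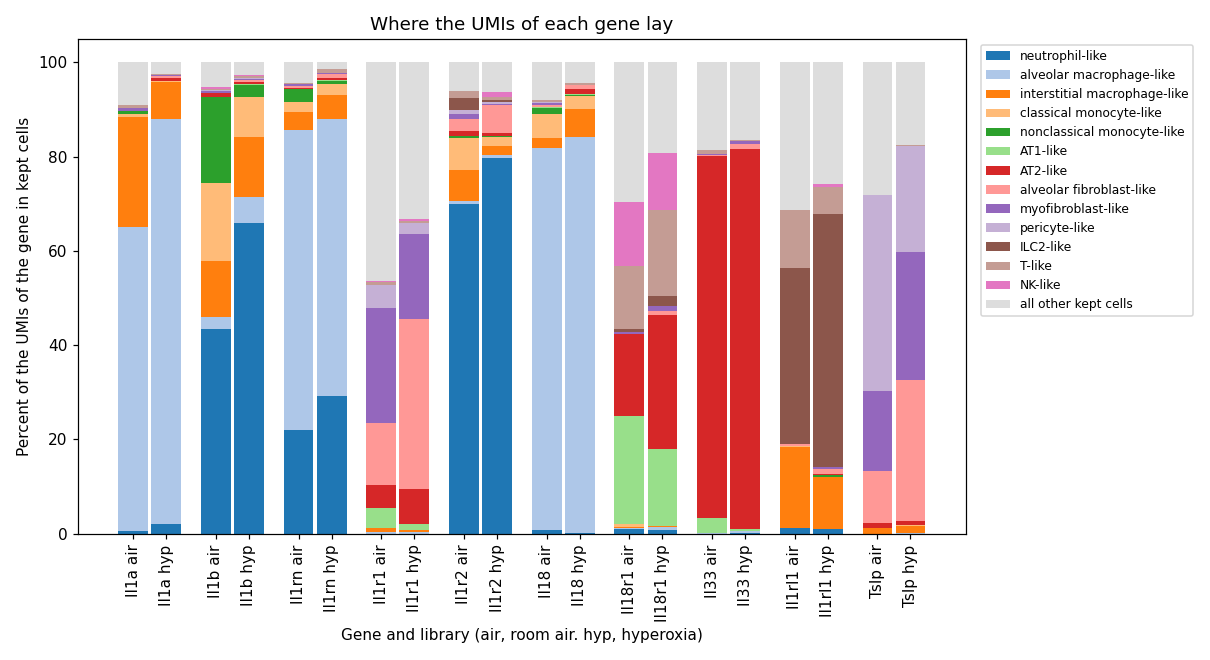
Percent of the UMIs of each gene in kept cells (vertical axis) that lay in each cell class (colours), for room air and hyperoxia side by side. The neutrophil-like part of Il1b was 43.4% and 66.0%, and the pericyte-like part of Tslp was 41.5% and 22.6%.

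Over all kept cells, which mix the number of cells of each class with the level per cell, 7 members reached a mean of 10 CPM and 1 of them, Il1r2, differed by at least 2-fold (6.83 and 15.1 CPM, log2 ratio 1.14, 0.95 to 1.34), where 2.35% of all genes did. The median log2 ratio of those 7 was 0.22, beside 0.01 over the 9328 genes compared. Il1a, below that level, had a log2 ratio of 1.09 (0.84 to 1.35).

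**Figure D5:**
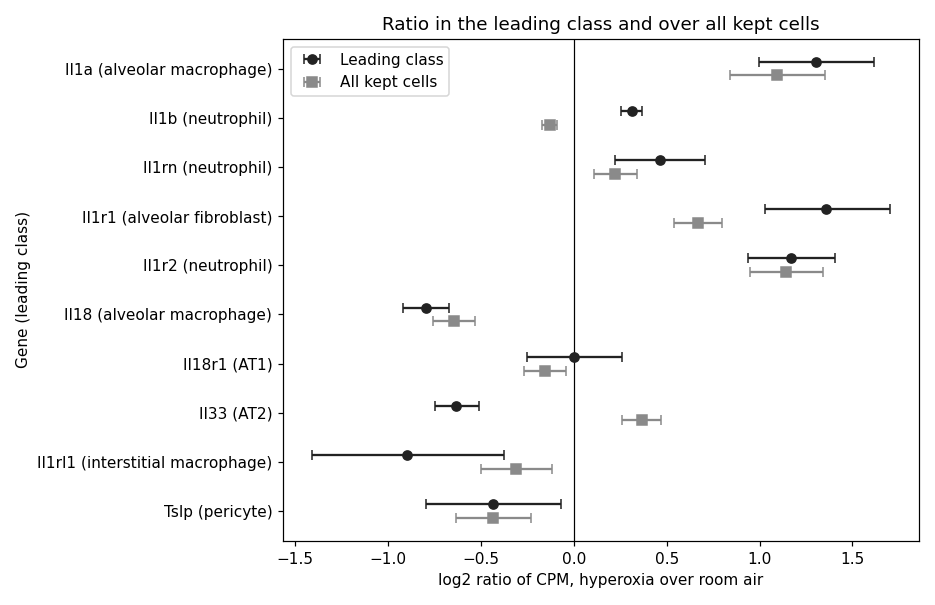
Log2 ratio of hyperoxia to room air (horizontal axis) of each gene in its leading class (black circles) and over all kept cells (grey squares), with exact 95% intervals for counting error. Il33 and Il1b had opposite signs in the leading class and over all kept cells.

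The pathway lists are described over all kept cells, where 2.35% of all genes compared differed by at least 2-fold either way. Of 5 co-receptors, decoys and partner receptors at 10 CPM or more, 1 was at least 2-fold higher in hyperoxia (Il7r, 23.0 and 52.1 CPM), with a median log2 ratio of 0.18. Of 7 processing and inflammasome genes none differed by 2-fold, with a median of -0.22, and the largest differences were in Aim2 (20.02 and 14.5 CPM), Gsdmd (30.4 and 22.3 CPM) and Casp4 (14.4 and 11.1 CPM). All 9 signalling adaptors were within 2-fold, with a median of 0.04, Myd88 at 31.7 and 25.4 CPM, Map3k7 at 41.4 and 48.9 CPM, and Irak1 at 57.7 and 68.0 CPM. Of 6 response genes 1 was at least 2-fold higher, the chemokine Cxcl2 (119 and 252 CPM), followed by Cxcl1 (18.3 and 35.2 CPM) and Areg (21.9 and 15.6 CPM). No other family cytokine reached 10 CPM, and none of the 12 dissociation genes differed by 2-fold. In neutrophil-like cells the inflammasome sensor Nlrp3 was at 643 and 956 CPM (log2 ratio 0.57, 0.39 to 0.76), and Casp1, which cleaves Il1b, at 21.5 and 14.4 CPM on 10 and 18 UMIs.

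Genes whose levels followed a member most closely were sought over 14 classes in 2 libraries, 28 points that share library and depth, among 7617 genes. Pearson's r of log2(CPM + 1) was 0.98 for Il1b with Cd300ld and 0.978 with Cd300lb, and 0.97 for Il1rn with the leukotriene enzyme gene Alox5. For Il1r2 it was 0.939 with Mxd1, for Il33 0.975 with Arhgef38, for Il1r1 0.95 with Tpm1, and for Tslp 0.935 with Hunk. The best values were lower for Il1a with Ltc4s (0.898), Il18 with Tcirg1 (0.891), Il18r1 with Eya2 (0.889) and Il1rl1 with C1qa (0.841), the last of which did not include the ILC2-like cells. Within the interstitial macrophage-like class, Il1rl1 was higher in the cluster where C1qa was lower.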

How the data were processed

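The 2 libraries are droplet single-cell RNA-seq of lung cells, 1 from room air and 1 from hyperoxia. The deposited tables hold raw UMI counts, which the authors made against mm10 for the barcodes called as cells, 39593888 in room air and 111934936 in hyperoxia. Sources disagree on the Cell Ranger version (2.1.1 in the submitters' processing notes) and on the 3' kit.

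Counts were analysed in Python 3.11.15 (numpy 2.4.6, scipy 1.17.1, scikit-learn 1.9.0). Barcodes needed 500 or more genes and a mitochondrial share of up to 20%. Doublets were ranked against simulated ones, and the expected 3.39% and 10.6% were removed. The 2000 most variable genes gave 30 principal components. Members, mitochondrial and sex-linked genes and the pathway lists were left out, except the dissociation genes, which could take part in the clustering. A graph of 20 neighbours was clustered by lineage and then by class with leidenalg 0.10.2 at resolution 1. Clusters took the class with the highest marker score. Only the markers were set beforehand and the scoring rule was written later.

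CPM (UMIs per 1000000) used all UMIs of the cells as denominator, with exact Poisson intervals. Shares have Clopper-Pearson intervals and ratios exact conditional intervals. A leading class has the highest mean CPM among classes with at least 50 cells per library (20 for basophil or mast, ILC2 and gamma delta T). Of the pathway lists, up to 3 genes each were named by the largest log2 ratio over all kept cells at a mean of 10 CPM or more, and other genes were named after their values were seen. A gene counted as differing at 2-fold. Gene spans are from GENCODE M21 (GRCm38, the build called mm10). Interval code was tested on simulated data. Members and lists were chosen with earlier results of these data known. Alternatives were other doublet, cell and gene settings and other clusterings. The libraries' other genes and the study's other experiments were not analysed here.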

Additional observations from a re-analysis of the deposited data

Results flagged for a closer look

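Differences that pointed in opposite directions in 2 cell classes, or in a class and the whole suspension, are given as log2 ratios of hyperoxia to room air. With 1 library per group, none of the differences between classes was tested, and no explanation was weighed. Il33 stood at -0.63 in AT2-like cells against 0.36 over all kept cells, where AT2-like cells were 4.40% and 9.37% of kept cells. Il1b stood at 0.31 in neutrophil-like cells against -0.13 over all kept cells. The former turned to -0.10 under a stricter filter on cells, and the latter to 0.26 as the mean of single cells. Il1b stood at -0.31 in nonclassical monocyte-like (-0.0013 under the stricter filter), -0.43 in dendritic-like and -1.71 in AT2-like cells. In AT2-like cells S100a8 was at 142 and 24.0 CPM, and 52 of the 59 room air Il1b UMIs lay in cluster 22. For Il1r1 the ratio was 1.36 in alveolar fibroblast-like cells, but -0.68 in smooth muscle-like and -0.53 in gCap-like cells. The smooth muscle-like ratio turned to 0.11 with no doublets removed. Il18 was at -0.80 in alveolar macrophage-like and 0.93 in interstitial macrophage-like cells. Il1rl1 was at -0.90 in interstitial macrophage-like and 1.25 in regulatory T-like cells, and both signs changed when each library was clustered on its own. Tslp was at -0.43 in pericyte-like and 0.72 in myofibroblast-like cells.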

How the results depend on the processing

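In the leading classes 105 of 120 recomputed log2 ratios stayed within the 95% interval of the value reported, and over all kept cells 46 of 60 did. Changes of sign were counted only for reported values whose interval excluded 0. There were 2 in the leading classes and 4 over all kept cells. Ratios of Il1r1, Il1r2, Il33 and Tslp in their leading classes stayed within their intervals under every alternative that gave a value. These ranged over 1.27 to 1.59, 0.98 to 1.21, -0.69 to -0.53 and -0.61 to -0.36. In neutrophil-like cells Il1b was at 0.18 with no doublets removed, 0.14 with at least 200 genes, 0.18 with each library clustered on its own, 0.065 as the mean of single cells and -0.10 with a stricter filter (1000 genes or more, mitochondrial share up to 10%). Il1rn was at 0.20 with that last filter and 1.18 without the cell with the most UMIs in each library. For Il1a, clustering each library on its own gave 1.73. Il18 in alveolar macrophage-like cells was at -0.66 with at least 200 genes, -0.38 with each library clustered on its own, -0.30 in clusters with at least 10 cells of each library and -0.55 relative to the median gene. Il18r1 in AT1-like cells was at -0.42 with no doublets removed. Il1rl1 in interstitial macrophage-like cells was at -0.17 with doubled doublet removal and 1.38 with each library clustered on its own. Over all kept cells, the mean of single cells gave 0.68 for Il1a, 0.26 for Il1b, 0.39 for Il1rn, 1.46 for Il1r2, -1.01 for Il18, 0.28 for Il18r1 and 0.0055 for Il1rl1. The filter at 1000 genes gave -0.68 for Il1b, 0.049 for Il1rn and 0.65 for Il1r2, doubled doublet removal -0.21 for Il1b and -0.47 for Il18, and no doublet removal -0.24 for Il1b and 0.040 for Il18r1. Elsewhere, among ratios whose interval excluded 0, signs changed for Il1rl1 in regulatory T-like cells (-0.22, each library on its own) and Il1r1 in smooth muscle-like cells (0.11 with no doublets removed, 0.041 at 1000 genes). They also changed for Il1b in alveolar macrophage-like cells (-0.12, doubled doublet removal) and Il33 in AT1-like cells (0.024, no doublets removed). The causes were not tested. The alternatives without the cell with the most UMIs, in shared clusters and relative to the median gene were chosen after seeing the data. So was that for Il1rn without the cluster almost all from hyperoxia. The alternative in shared clusters gave no value for Il1r1, with 0 room air UMIs left. Depth limits low shares most: after thinning to 1000 UMIs only Il1b, and Il1r2 in hyperoxia, were found in most cells of their leading class. No paired analysis was possible because each group had 1 library.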
